A study of Homo sapiens with 7 samples.

Results

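The genes described are the 4 members of the ERBB receptor family, EGFR, ERBB2, ERBB3 and ERBB4, in T-47D, a luminal, estrogen receptor-positive breast cancer cell line. They were chosen by name and not by any measured value, though with earlier results of these data known. Every called peak in a gene or within 20 kb of it was taken, which gave 102 peaks of 285703 in all 6 peak lists. The study profiled the histone variant H2A.Z and the modifications H3K27ac, H3K27me3, H3K36me3, H3K4me2 and H3K9me3 by chromatin immunoprecipitation and sequencing, to relate histone modification to gene regulation. Each mark had 1 library, from cells grown in medium with 10% serum and with no treatment named in the labels. An input library was also listed and is not analysed here. Without replicates no difference between genes or marks could be tested, and all values below describe these libraries.

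ERBB receptors are cell-surface tyrosine kinases that pair with each other when a ligand binds, and they signal through the MAP kinase and PI3 kinase pathways. EGFR binds EGF and related ligands, ERBB2 has no known ligand of its own and serves as the preferred partner of the others, ERBB3 binds neuregulins but has little kinase activity, and ERBB4 binds neuregulins and has an active kinase. In the mammary gland the family acts in growth and differentiation, and ERBB2 is amplified in a subset of breast cancers. As background to the marks, H3K4me2 lies at promoters and enhancers, H3K27ac at active ones, H3K36me3 in transcribed gene bodies, and H3K27me3 in Polycomb-repressed chromatin. H2A.Z is known from active starts and H3K9me3 from heterochromatin.

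The lists contain only chromosome, start, end and name for each peak, so a peak can be described by position and width but not by height. Each list holds between 20451 and 64561 peaks on chromosomes 1 to 22 and X, and peaks of 501 bp, the commonest width, make up between 38.4 and 66.8% of each. The depth of the libraries is unknown. The labels of 2 lists are in doubt. Of the peaks labelled H3K9me3, 30.4% overlapped H3K27ac, whereas 24 of 52188 peaks labelled H2A.Z did, which is opposite to the background for both marks. They are named below as labelled H2A.Z and labelled H3K9me3, and without them the genes hold 14 peaks at EGFR, 29 at ERBB2, 18 at ERBB3 and 33 at ERBB4, of 15, 32, 20 and 35.

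The promoter sequences are shown because the 4 starts did not all carry the same marks, which are described after them. They come from RefSeq on GRCh38.p14, a later build than the hg19 coordinates of the peaks, and run from 250 bases before to 50 bases after the annotated start, 5′ to 3′ on the gene's strand. Of the 4 genes 3 had an entry, and ERBB3 is named only. EGFR had a second entry inside the gene (chr7:55109589-55109888), with 1 CG step, 42% G and C and no match to any motif below, which is not printed. The printed EGFR window, that of the outermost start, lies at chr7:55018767-55019066 on the plus strand, the ERBB2 window at chr17:39687844-39688143 on the plus strand and the ERBB4 window at chr2:212538753-212539052 on the minus strand. Capitals in EGFR and ERBB4 mark matches on either strand to GGGCGG, the GC box, and GCCNNNGGC, an AP-2 type motif. Capitals in ERBB2, which held neither, mark the 136 bases shared with the promoter window of PGAP3 on the opposite strand.
EGFR: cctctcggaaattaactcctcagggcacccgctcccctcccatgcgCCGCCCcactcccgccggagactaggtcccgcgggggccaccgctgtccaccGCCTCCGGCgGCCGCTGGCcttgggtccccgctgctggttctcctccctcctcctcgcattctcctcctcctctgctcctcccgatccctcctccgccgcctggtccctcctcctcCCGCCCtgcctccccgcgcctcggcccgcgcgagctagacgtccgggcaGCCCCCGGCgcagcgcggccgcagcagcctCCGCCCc
ERBB2: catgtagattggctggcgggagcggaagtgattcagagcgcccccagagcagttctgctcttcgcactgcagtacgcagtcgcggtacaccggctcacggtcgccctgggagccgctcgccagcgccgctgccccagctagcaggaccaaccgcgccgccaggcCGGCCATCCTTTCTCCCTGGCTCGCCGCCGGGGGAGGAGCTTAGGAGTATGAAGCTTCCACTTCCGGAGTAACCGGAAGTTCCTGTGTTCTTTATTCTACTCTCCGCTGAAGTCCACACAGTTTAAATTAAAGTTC
ERBB4: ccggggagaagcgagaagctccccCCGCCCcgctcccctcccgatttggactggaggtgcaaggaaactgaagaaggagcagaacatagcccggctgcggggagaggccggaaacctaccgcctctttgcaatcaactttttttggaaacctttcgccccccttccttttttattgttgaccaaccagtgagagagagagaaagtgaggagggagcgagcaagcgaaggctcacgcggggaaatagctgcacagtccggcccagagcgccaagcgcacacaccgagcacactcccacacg

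Among the printed windows that of EGFR was the richest in CG steps, with 33, a number reached by 17.2% of the 35116 RefSeq promoter windows. ERBB2 had 24, reached by 33.9%, and ERBB4 had 19, reached by 42.9%. The GC box occurred 3 times in EGFR, 0 times in ERBB2 and once in ERBB4, and 45% of all windows held it. GCCNNNGGC occurred 3 times in EGFR alone and in 23.2% of all windows. None of the 3 printed windows held TGTTTAC, a forkhead motif found in 3.42% of all windows, or AGATAA, which GATA factors recognise, found in 10.3%. GGTCA, a core motif of nuclear receptors found in 37.4%, occurred once, in ERBB4. No match among these overlapped another. A match gives letters and not a bound site.

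At the starts, ERBB2 and ERBB3 were covered by H3K4me2 and H3K27ac together, EGFR had H3K4me2 without H3K27ac, and ERBB4 had H3K27ac without H3K4me2. The start window was 2 kb to each side of the annotated gene start. For ERBB2 this is the outermost start, whose promoter window shares sequence with that of PGAP3. The peaks there cannot be told apart between the genes. The contrasts at EGFR and ERBB4 depend on the settings. An ERBB4 H3K4me2 peak lay 2198 bp inside the gene, just beyond the window, and with 5 kb to each side H3K4me2 touched all 4 genes. No tile share was taken for that wider window. The H3K4me2 peaks at the EGFR start were 501 bp wide and were lost when only peaks above the median width were kept. H3K4me2 peaks touched the window of 3 of the 4 genes and H3K27ac peaks also of 3, where 9.81 and 5.06% of the 4 kb tiles laid end to end along the analysed genome held such a peak. Labelled H3K9me3 touched 3 windows as well, against 3.27% of tiles. H3K36me3, H3K27me3 and labelled H2A.Z touched none, and they were found in 8.57, 8.31 and 7.07% of tiles. Tiles were not restricted to gene starts, where H3K4me2 and H3K27ac are generally dense, so these shares are a genome background and not one of promoters. Each of the 4 windows held a peak of at least 1 list, with or without the doubted lists. The share of tiles with a peak of any list was not taken, and it is at least the 9.81% of H3K4me2 alone.

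**Figure D1:**
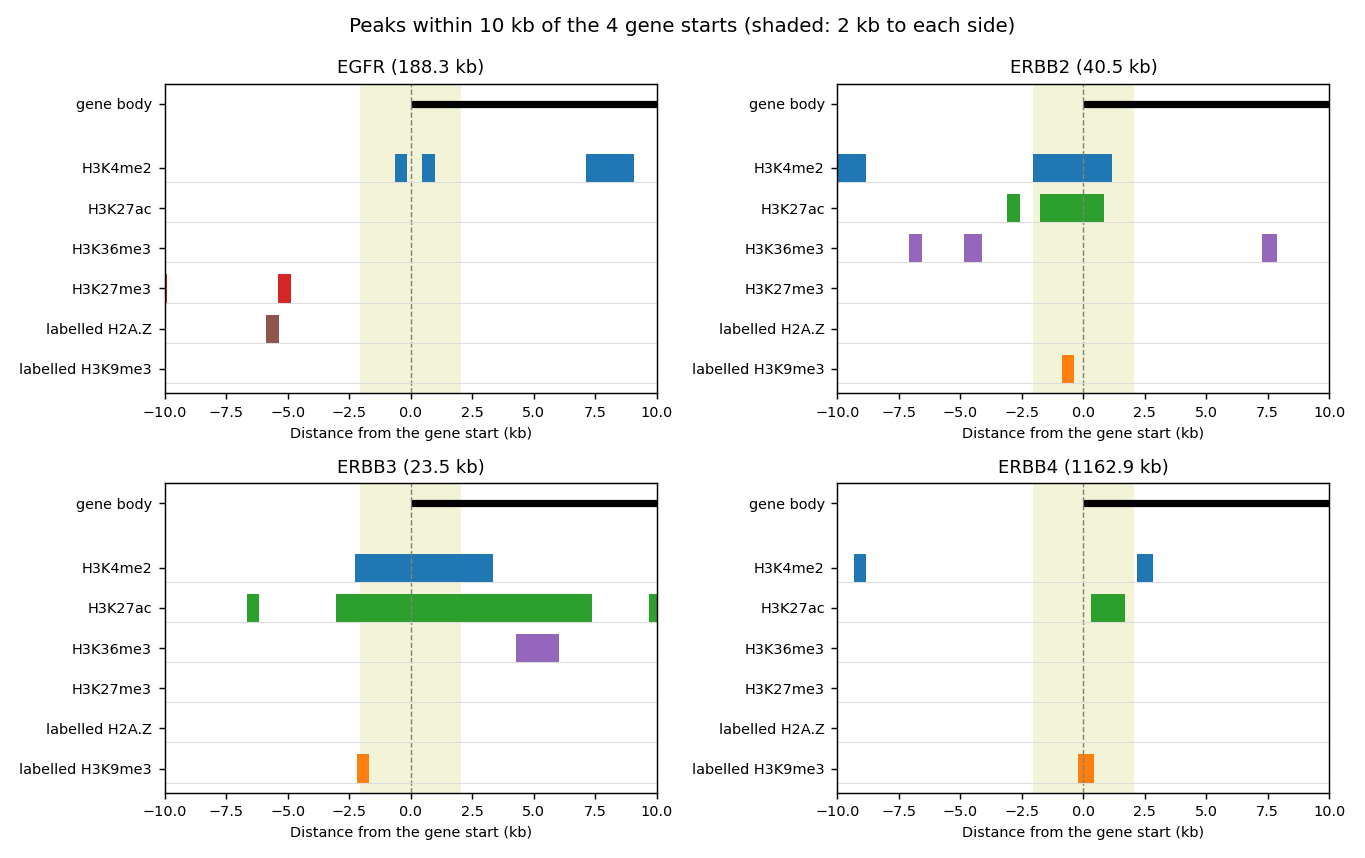
Peaks of each list by distance from the gene start in kb, with the gene body in black and the window of 2 kb to each side shaded. The 10.4 kb H3K27ac peak and the 5.6 kb H3K4me2 peak span the ERBB3 start, and both marks cross the outermost ERBB2 start. The EGFR start lies between 2 H3K4me2 peaks, and the ERBB4 H3K27ac peak begins 0.3 kb inside the gene.

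EGFR carried H3K4me2 at its start and along its body, but nearly no other mark within the gene. Its body spans 188.3 kb of chromosome 7 (55086725 to 55275031, hg19, plus strand). In the gene and its flanks the lists held 8 H3K4me2 peaks, 1 H3K27ac peak, 5 H3K27me3 peaks, 1 labelled H2A.Z peak and none of H3K36me3 or labelled H3K9me3. Of tiles as long as this region, 83.9% held H3K4me2, 56.4% H3K27ac, 43.6% H3K36me3, 48% H3K27me3, 51.1% labelled H2A.Z and 61.3% labelled H3K9me3.

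The annotated EGFR start fell into a gap of 609 bp between 2 H3K4me2 peaks of 501 bp, one upstream (55086095 to 55086595) and one inside the gene (55087205 to 55087705). The RefSeq window of EGFR shares 194 bases with that of an antisense transcript, LOC105375284, so these peaks cannot be given to one direction of transcription. Both peaks have the commonest width of the list, and neither counts if peaks at or below the median width are left out. With the body divided into 4 equal parts, 4 of the 7 H3K4me2 peaks lay in the first, up to 29.7 kb from the start, and 0, 2 and 1 in the following parts. The widest, 1958 bp, began 7.1 kb inside the gene (55093857 to 55095814) and ranked in the widest 4.79% of its list. No list had a peak between 29.8 and 101.9 kb. H3K4me2 covered 2.93% of the EGFR body, against 1.9% of the analysed span and 1.69% of chromosome 7.

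The single EGFR H3K27ac peak (55245670 to 55246774) lay 158.9 kb from the start. It covered 0.587% of the body, against 1.29% of the analysed span and 1% of chromosome 7. It overlapped no other list, and the nearest H3K4me2 peak began 1.8 kb further on. None of the 8 H3K4me2 peaks overlapped H3K27ac (exact binomial interval 0 to 36.9%, 95%, with peaks taken as independent), where 25.7% of all H3K4me2 peaks did. The nearest H3K36me3 peak to the start was 261.3 kb away, upstream.

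EGFR was the only one of the 4 genes with H3K27me3 in its region, and none of it lay in the gene. Of the 5 peaks, 4 lay upstream, between 17.2 and 4.9 kb before the start, and 1 downstream of the far end (55293668 to 55294615). The widest of them was 948 bp, within the widest 16.1% of its list. The upstream peak nearest to the start (55081346 to 55081846) shared 14 bp with the only labelled H2A.Z peak found at any of the 4 genes (55080859 to 55081359). Of tiles of the same length on chromosome 7, 55.3% held an H3K27me3 peak. Of the 8 H3K4me2 peaks, 7 lay in the body and 1 just upstream of the start. None overlapped H3K27me3, as for nearly all of the list, in which 1.19% of H3K4me2 peaks did.

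ERBB2 combined active marks at its outermost start, where PGAP3 also starts, with the most H3K36me3 of the family. Its body spans 40.5 kb of chromosome 17 (37844393 to 37884915, plus strand). With the flanks it held 8 H3K4me2, 12 H3K27ac, 9 H3K36me3 and 3 labelled H3K9me3 peaks, and none of H3K27me3 or labelled H2A.Z. Among tiles of that length 62.2% held H3K4me2, 34.3% H3K27ac, 28.1% H3K36me3, 35.8% labelled H3K9me3, 31.4% H3K27me3 and 33.1% labelled H2A.Z. On chromosome 17 alone the shares for H3K27ac and H3K36me3 were 56.6 and 51.9%.

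Values for the ERBB2 start concern the outermost start alone. Across it, H3K4me2 formed a peak of 3214 bp (37842323 to 37845536) and H3K27ac one of 2602 bp within it (37842642 to 37845243). By width they were among the top 1.14% and 8.12% of their lists. Most of each lay upstream, since H3K4me2 reached from 2.1 kb before to 1.1 kb after the start and H3K27ac from 1.8 kb before to 0.8 kb after. A labelled H3K9me3 peak of 501 bp (37843527 to 37844027) lay inside both, 0.4 kb before the start. The neighbouring gene PGAP3 starts on the opposite strand within the same sequence, as the capitals in the ERBB2 window show, so the peaks at this start cannot be told apart between the genes. A further H3K4me2 peak of 501 bp (37855644 to 37856144) lay 11.3 kb inside ERBB2. ERBB2 is known to have another start inside this span, which was not placed on hg19 here, so it was not determined whether this peak lies at it.

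H3K36me3 covered 26.1% of the ERBB2 body (10596 bp in 6 peaks), against 3.63% of the analysed span and 8.09% of chromosome 17. The first of the 6 began 7.2 kb from the start and the last ended at 36.9 kb. With the body divided into 4 equal parts, 1 peak lay in the first, none in the second, 3 in the third and 2 in the last. The widest, 4729 bp (37871455 to 37876183), ranked in the top 9.24% of its list. The mark was thus uneven along the gene, with no H3K36me3 peak between 7.9 and 19.4 kb. Within that, a stretch of 7.6 kb, from 11.8 to 19.4 kb, held no peak of any list.

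H3K27ac covered 8.8% of the ERBB2 body and H3K4me2 6.53%, against 1.29 and 1.9% of the analysed span and 3.03 and 3.58% of chromosome 17. The H3K27ac share was 3.85% when only peaks above the median width of the list were kept. Beside the start, 5 H3K27ac peaks of 501 to 710 bp lay in the body between 19.6 and 39.7 kb. Of the 12 H3K27ac peaks in the region, 5 overlapped H3K36me3 (41.7%), where 12.9% of all H3K27ac peaks did. The exact interval, 15.2 to 72.3%, takes peaks as independent. The 5 lay on only 3 of the 9 H3K36me3 peaks, partly in the downstream flank, so the interval is no test of enrichment. H3K27ac and H3K36me3 shared 2362 bp in all, in pieces of at most 649 bp. At one place, 35.8 to 36.9 kb from the start, H3K27ac (37880242 to 37880951), H3K4me2 (37880313 to 37880813) and H3K36me3 (37880303 to 37881320) all overlapped.

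In the ERBB2 flanks the widest peaks were larger than any in the body. An H3K4me2 peak of 5761 bp (37829788 to 37835548), the 68th widest of 64561, lay 14.6 to 8.8 kb upstream and held no H3K27ac. An H3K36me3 peak of 6264 bp (37898813 to 37905076) began 54.4 kb from the start, and 2 labelled H3K9me3 peaks without any other list lay between it and the gene. In RefSeq on GRCh38 the protein-coding genes within 20 kb are PGAP3 and PNMT upstream, MIEN1 overlapping the far end, and GRB7, an adaptor that binds ERBB2, downstream. The peaks in the flanks may belong to these genes, which were not placed on hg19.

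ERBB3 was the most densely acetylated of the 4 genes, and H3K27ac covered about as much of its body as it left free. The body spans 23.5 kb of chromosome 12 (56473809 to 56497291, plus strand). H3K27ac covered 49% of it (11498 bp in 7 peaks), against 1.29% of the analysed span and 1.52% of chromosome 12. With both flanks included it covered 32.2%. H3K4me2 covered 17.4% of the body, partly by a peak that crosses its far end, against 1.9% of the span and 2.14% of the chromosome. By density this was 29.8 H3K27ac peaks per 100 kb (exact Poisson interval 12 to 61.4, counting error only), where ERBB2 had 14.8 (5.43 to 32.2), ERBB4 0.86 (0.412 to 1.58) and EGFR 0.531 (0.0134 to 2.96). These intervals are no test between genes, since peaks within a library cluster and are not replicates. ERBB3 and ERBB2, with more H3K27ac peaks per 100 kb, are also the shorter genes, and the part of length was not tested.

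Most of this signal was 1 peak. An H3K27ac peak of 10413 bp (56470777 to 56481189) ran from 3.0 kb before the ERBB3 start to 7.4 kb into the gene and was the 69th widest of 31453. It enclosed an H3K4me2 peak of 5605 bp (56471564 to 56477168), the 83rd widest of 64561, which reached from 2.2 kb before to 3.4 kb after the start. The H3K27ac peak therefore extended further into the gene than H3K4me2 did, by 4.0 kb. A labelled H3K9me3 peak of 501 bp (56471609 to 56472109) lay inside both, upstream. The other 6 H3K27ac peaks in the body were between 501 and 1059 bp wide, and 5 of them overlapped no other list.

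H3K36me3 was sparse in ERBB3 beside this acetylation. The body held 1 peak of 1745 bp (56478080 to 56479824), 4.3 to 6.0 kb from the start and wholly inside the wide H3K27ac peak. It covered 7.43% of the body, against 26.1% in ERBB2, 3.63% of the analysed span and 4.09% of chromosome 12, and 16.6% with both flanks included. The region with flanks held 3 H3K36me3 peaks, and the other 2 lay downstream, the wider one with 7861 bp (56500204 to 56508064). Downstream of ERBB3 the protein-coding RefSeq neighbours on GRCh38 are PA2G4, RPL41 and ZC3H10, and the downstream H3K4me2, H3K27ac and H3K36me3 peaks may belong to them. So may an H3K4me2 peak (56496570 to 56498131) and an H3K27ac peak (56497061 to 56497699), which counted in the body but cross its far end.

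Of tiles as long as ERBB3 with its flanks, 56.2% held H3K4me2, 30.1% H3K27ac, 25.5% H3K36me3 and 30.6% labelled H3K9me3. The region held 4, 11, 3 and 2 peaks of these lists. It held none of H3K27me3 or labelled H2A.Z, found in 28.6 and 29.9% of tiles. The nearest H3K27me3 peak lay 227.6 kb upstream of the ERBB3 start and the nearest labelled H2A.Z peak 201.3 kb upstream.

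**Figure D2:**
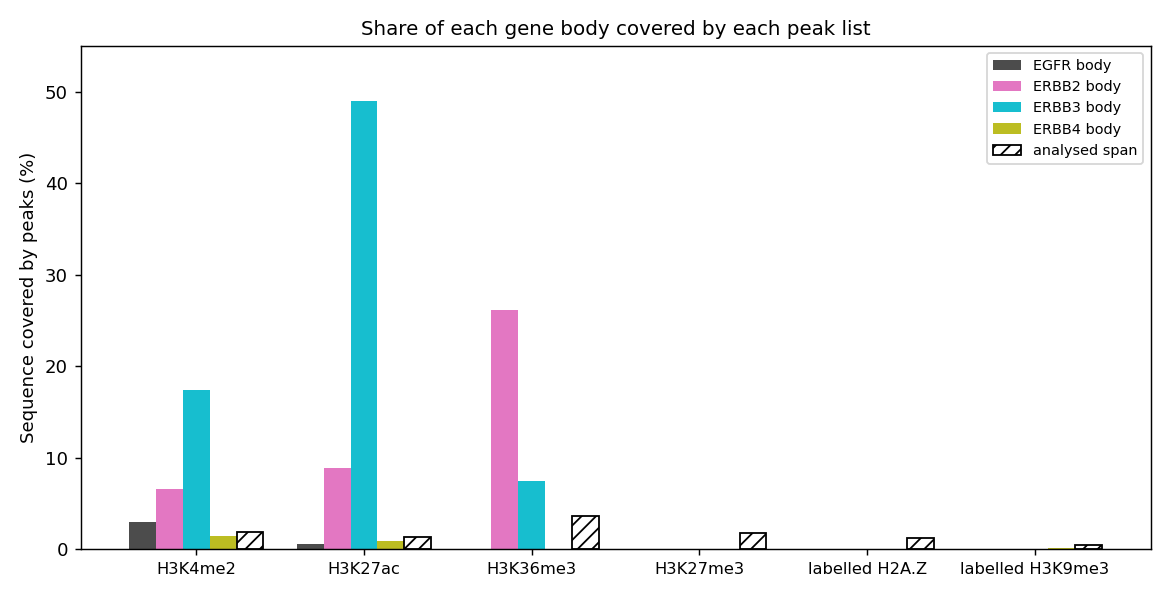
Share of each gene body covered by each list in percent (bars from 0), with the share of the analysed span as hatched bars. ERBB3 stands out for H3K27ac (49%) and H3K4me2 (17.4%), ERBB2 for H3K36me3 (26.1%), and H3K27me3 and labelled H2A.Z cover none of the 4 bodies.

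ERBB4, the longest of the 4 genes, had H3K27ac at its start, both H3K27ac and H3K4me2 peaks gathered in its far end, a few H3K4me2 peaks in between, and neither H3K36me3 nor H3K27me3. Its body spans 1162.9 kb of chromosome 2 (212240442 to 213403352, minus strand, so that transcription starts at the higher coordinate). With the flanks it held 23 H3K4me2, 10 H3K27ac and 2 labelled H3K9me3 peaks, and no peak of the other 3 lists. Tiles of that length held H3K4me2 in 99.3% of cases, H3K27ac in 91.9%, labelled H3K9me3 in 93.2%, H3K36me3 in 77.3%, H3K27me3 in 82% and labelled H2A.Z in 83.8%. On chromosome 2, 52 of 195 such tiles had no H3K36me3, 58 had no H3K27me3 and 68 had no labelled H2A.Z.

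At the ERBB4 start an H3K27ac peak of 1419 bp (213401642 to 213403060) began 292 bp inside the gene. A labelled H3K9me3 peak of 636 bp (213402926 to 213403561) spanned the start and overlapped the H3K27ac peak by 135 bp. The nearest H3K4me2 peak (213400502 to 213401154) was 2198 bp inside the gene, just beyond the start window and separate from H3K27ac. A further H3K4me2 peak lay 9.3 to 8.8 kb upstream. The ERBB4 start thus held a shorter H3K27ac peak than those of ERBB3 and ERBB2, and it was the only one of the 4 starts that a labelled H3K9me3 peak spanned.

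The far end of ERBB4 held 9 of its 10 H3K27ac peaks. All 9 lay within the last 100 kb of the body, between 1065.5 and 1146.3 kb from the start, and H3K27ac covered 8.89% of that stretch, against 0.887% of the whole body. The widest were 2845 bp (212286320 to 212289164) and 2106 bp (212298859 to 212300964), in the top 6.71 and 12.6% of the list. H3K4me2 had 10 of 19 body peaks in the same last 100 kb and covered 8.29% of it. In 3 places the marks overlapped, and the longest overlap was 1149 bp. Only 3 of the 23 H3K4me2 peaks overlapped H3K27ac (13%, exact interval 2.78 to 33.6%), an interval that holds the 25.7% of the whole list.

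**Figure D3:**
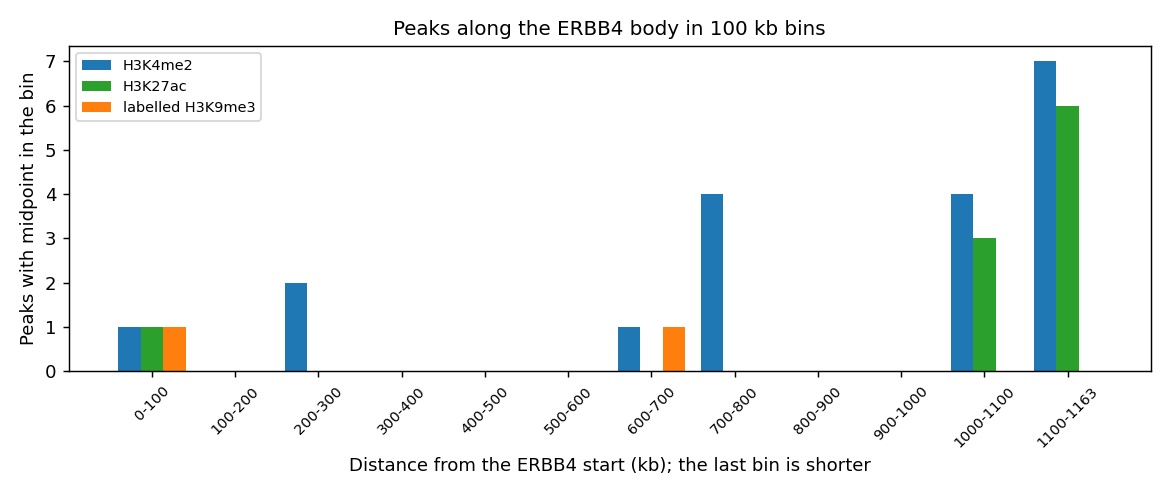
Number of H3K4me2, H3K27ac and labelled H3K9me3 peaks with their midpoint in each 100 kb of the ERBB4 body, by distance from the start in kb. The last 2 bins hold 4 and 7 H3K4me2 peaks and 3 and 6 H3K27ac peaks, and the bins from 300 to 600 kb hold none.

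Between its ends ERBB4 carried few peaks. The longest stretch without a peak of any list was 323.4 kb, from 284.3 to 607.8 kb inside the gene, and the second of 4 equal parts of the body held no peak. An H3K4me2 peak of 3794 bp (212791793 to 212795586) followed it, the widest of the gene and in the top 0.638% of the list. It held no H3K27ac but did hold the second labelled H3K9me3 peak (212792953 to 212793453). Near the far end another wide H3K4me2 peak, of 2629 bp (212241449 to 212244077), had no H3K27ac either. Over the whole body H3K4me2 covered 1.44% and H3K27ac 0.887%, against 1.27 and 0.846% of chromosome 2. Both thus lay near the level of the chromosome and below that of the analysed span, 1.9 and 1.29%. Chromosome 2 itself had little H3K27me3 (0.464% covered, against 1.75% of the analysed span) and labelled H2A.Z (0.096%, against 1.22%). The nearest H3K36me3 peak to the ERBB4 start was 468.5 kb upstream, and the nearest H3K27me3 peak 2032.1 kb away on the side of the far end.

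**Figure D4:**
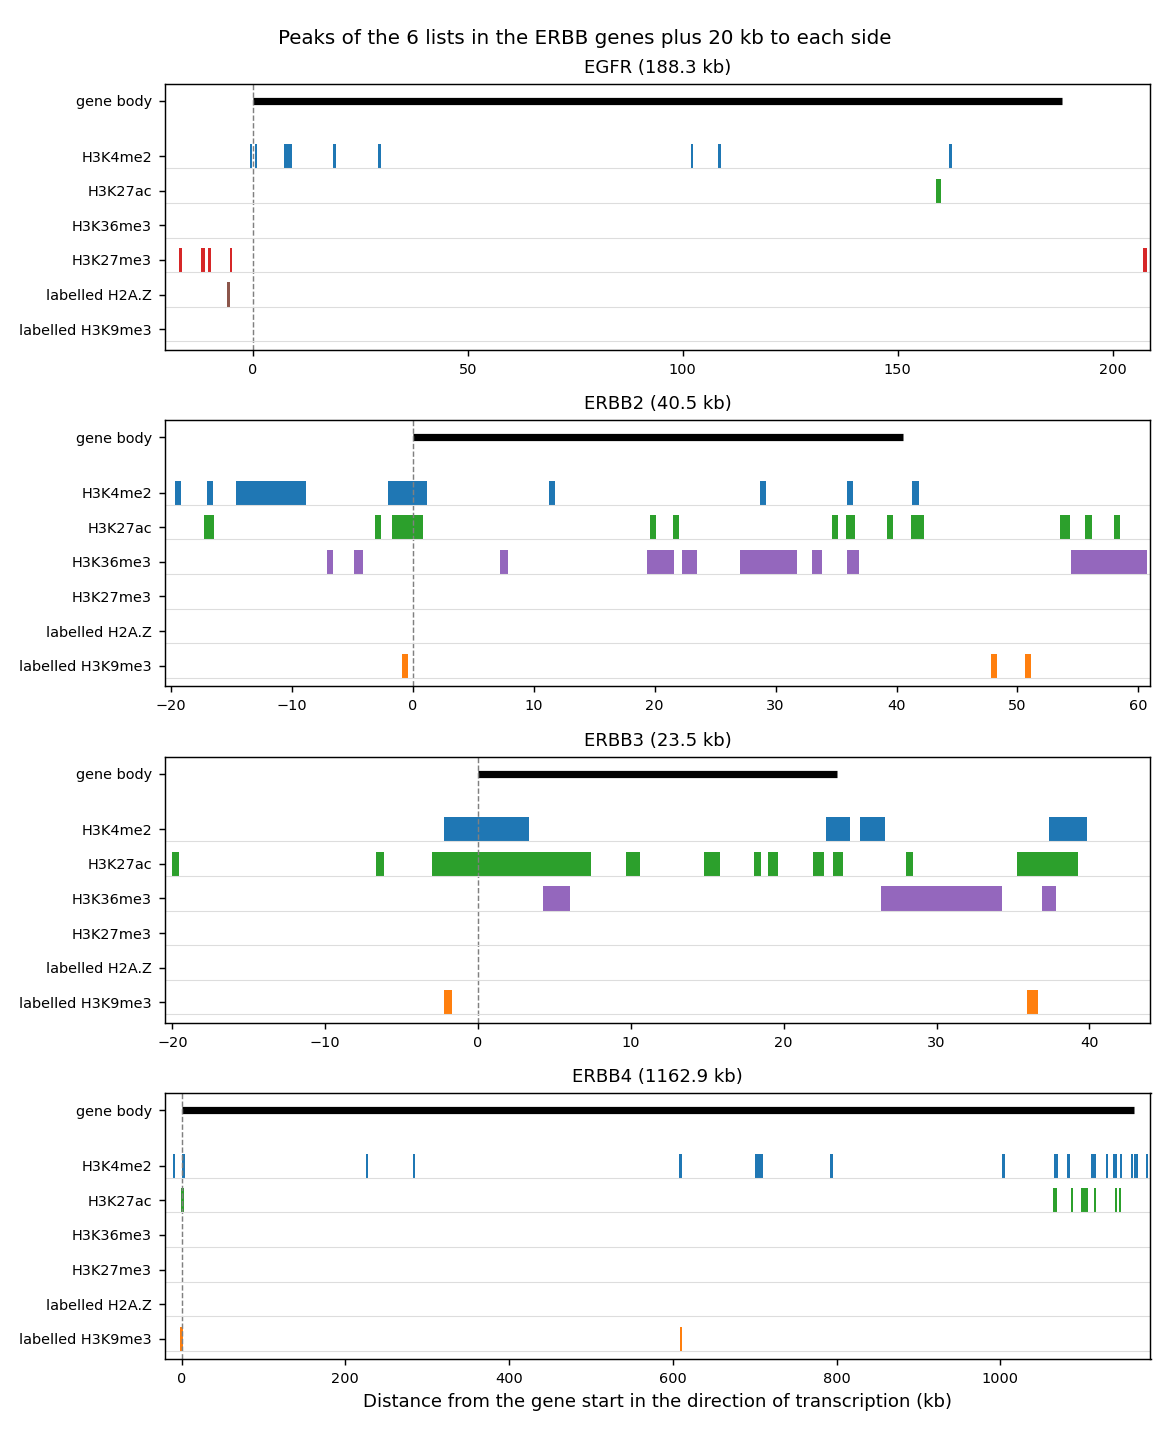
Peaks of the 6 lists over each gene body (black) and its 20 kb flanks, by distance from the gene start in kb. Peaks too narrow to be seen are drawn wider around their midpoint, and each panel has its own scale. H3K36me3 appears at ERBB2 and ERBB3, H3K27me3 only at EGFR, and the ERBB4 H3K27ac and H3K4me2 peaks gather in the far end.

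Set side by side, the gene bodies differed in whether they held H3K36me3 and labelled H3K9me3, and in the share that each list covered. All 4 bodies held H3K4me2 and H3K27ac, 2 held H3K36me3, 1 held labelled H3K9me3, and none held H3K27me3 or labelled H2A.Z. No background share was taken for bodies alone, and longer tiles held a peak more often. The body with labelled H3K9me3 was that of ERBB4, the longest gene. That list was in 93.2% of tiles as long as ERBB4 with flanks and in 30.6% for ERBB3. H3K36me3 was in 28.1% of such tiles for ERBB2, 25.5% for ERBB3, 43.6% for EGFR and 77.3% for ERBB4. H3K4me2 and H3K27ac were in 56.2 and 30.1% of tiles for ERBB3, and in 99.3 and 91.9% for ERBB4. For H3K27me3 and labelled H2A.Z the shares were 28.6 and 29.9% for ERBB3, and 82 and 83.8% for ERBB4. Those for ERBB2 and EGFR lay in between. By share of the body covered, the order for H3K27ac was ERBB3, ERBB2, ERBB4 and EGFR, and for H3K4me2 it was ERBB3, ERBB2, EGFR and ERBB4. For H3K36me3 it was ERBB2 and ERBB3, with EGFR and ERBB4 at 0. Any list covered 51.1% of the ERBB3 body, 33.9% of ERBB2, 3.52% of EGFR and 2.17% of ERBB4, which is also the order from the shortest to the longest gene. The longer genes hold more sequence far from their starts, and the part of length in this order was not tested. With 1 library per mark no spread over samples exists against which neighbours in these orders could be set.

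Of the 7 labelled H3K9me3 peaks at the 4 genes, 5 overlapped H3K4me2 or H3K27ac, where 9759 of 20451 in the whole list did (47.7%). The other 2 were those between ERBB2 and the downstream H3K36me3 peak. They were narrow, and the widest, 756 bp (56509718 to 56510473), lay downstream of ERBB3 inside an H3K27ac peak of 4015 bp (56509072 to 56513086). None of the 7 overlapped H3K36me3, and 0.156% of the whole list did.

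**Figure D5:**
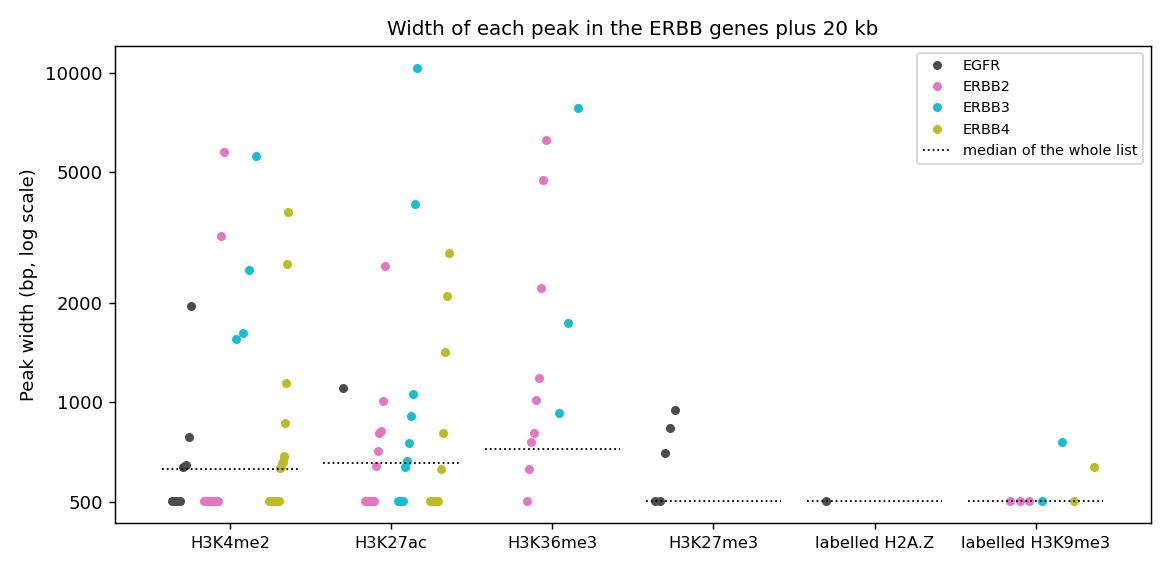
Width of every peak in the 4 genes and their 20 kb flanks in bp on a log scale, by list and gene, with the median of the whole list as a dotted line. The widest are the H3K27ac peak of 10413 bp and the H3K36me3 peak of 7861 bp at ERBB3, and many peaks of each gene sit at 501 bp.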

How the data were processed

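Peak positions from ChIP-seq of T-47D cells were analysed for 6 of the 7 samples. The authors deposited 1 peak list per library, with start and end in bp and no score. Bowtie2 2.1.0 and HOMER 4.2, with hg19 and GRCh37, are named in the submitters' processing notes, which give no role for either as used here. Calling settings, the part of the input and sequencing depth were not given in the sources used here, so a missing peak means only that none was listed, and copy number was not corrected.

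Gene spans on hg19 were given with the choice of genes, and the ERBB3 strand came from general knowledge, as did the roles of genes and marks. Coordinates are 1-based. A peak counted where it shared at least 1 bp with a region. Covered bp were merged within a list. The analysed span, 2772.7 Mb of chromosomes 1 to 22 and X, left out 58 stretches of at least 1 Mb without any peak (172.1 Mb). Background shares come from tiles of equal length laid end to end along it. Wilson, exact binomial and exact Poisson intervals (95%) cover counting error only, and peaks that cluster are not independent. No test was made. The members and settings were chosen with earlier results of these data known. The planned pathway genes (ligands and adaptors) are not described, because no hg19 gene positions were used for them. Every peak at a start and the widest peaks of each region were to be named; other peaks named were chosen after their positions were seen. Overlap and tile counts were checked on artificial intervals. Python 3.11.15, numpy 2.4.6, scipy 1.17.1 and matplotlib 3.10.9 were used.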

Additional observations from a re-analysis of the deposited data

How the results depend on the processing

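Merging peaks within 1 kb left the counts of genes with a start peak at their values for all 6 lists, and joined the 2 H3K4me2 peaks beside the EGFR start across their gap of 609 bp. Windows of 1 kb to each side gave labelled H3K9me3 at 2 genes, without ERBB3, and left the other lists as they were. With at least 50% of the peak inside, H3K27ac counted at 2 genes, since the wide ERBB3 peak lies mostly outside the window. With 5 kb to each side, H3K27me3 touched 1 gene and H3K36me3 touched 2, where both had touched 0, and H3K4me2 touched all 4. Tile shares for start windows were taken at 4 kb only, and longer tiles held a peak more often. With only the peaks above their list's median width, labelled H3K9me3 touched 1 gene, where it had touched 3, and H3K4me2 touched 2, without EGFR. H3K27ac coverage of the ERBB2 body was 3.85% with wider peaks, 10.4% with merged peaks and 11.9% with the flanks included. For ERBB3 it was 45.8, 53.3 and 32.2%, for ERBB4 0.617, 0.939 and 0.857%, and for EGFR 0.484% with the flanks. H3K36me3 coverage was 24.6, 27.9 and 22.3% for ERBB2 and 16.6% for ERBB3 with the flanks. It was 0 for EGFR and ERBB4 under every setting tried. A peak count of 0 could change only with 50 kb flanks, because the other settings only remove or join peaks. Of the 24 peak counts per gene and list, those of 0 included, 11 moved by over 1.5 times with wider peaks and 9 without flanks. With 50 kb flanks 11 moved, and with merged peaks or at least 50% inside 0 did. The cause of these moves was not tested beyond the change of region or peaks that each setting makes. No paired analysis was possible because each mark has 1 library. Signal under the authors' threshold cannot be seen in these lists. Whether peaks of 501 bp, the commonest width, give the true extent of their signal is not known.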
